A study of Bos taurus with 8 samples.

Results

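Lymphatic endothelial cells (LECs), the cells that line the lymphatic vessels, made up 249 of the 36129 single-cell transcriptomes that passed quality control in a time course of bovine skeletal muscle and of the cultures grown from it. The animals were 5 calves (donors 2, 4, 5, 7 and 10) and 5 adults (donors 1, 3, 6, 8 and 9), of which 6, 8 and 10 were males, and donor 3 gave cells at Timepoint 1 alone. They were the cells that the authors' annotation labels LECs at Timepoint 1 (81 of 4395 cells) and Timepoint 2 (168 of 9591 cells). At Timepoints 3, 4 and 5 the annotation labels 0 cells as LECs, and FLT4, CCL21 and MMRN1 had 0 UMIs in all cells there, which at Timepoint 3 allows up to 0.0119 counts per 1000000 UMIs (CPM). Timepoint 1 was muscle: unsorted cells from collagenase-digested semitendinosus of Belgian Blue cattle. Timepoint 2 was passage 0, the cells of each animal plated separately on fibronectin, kept for 72 h in a growth medium without serum, and pooled for the library; the record of this library also names SCs and FAPs beside unsorted cells. Each timepoint was 1 droplet (3′ UMI) library of all animals together, so timepoint and library cannot be told apart. The authors assigned cells to donors by genotype and labels to clusters. At Timepoint 1 they drew on differential expression and labels transferred from murine data, and scored endothelial cells for signatures from a human expression atlas. At Timepoint 2 they drew on comparison with Timepoint 1.

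Lymphatic endothelium is specified by the transcription factor PROX1 and grows under VEGF-C through its receptor FLT4 (VEGFR-3). Lymphatic capillaries take up interstitial fluid through loose junctions, carry the hyaluronan receptor LYVE1 and secrete CCL21, the chemokine that draws dendritic cells and lymphocytes into the vessel, whereas collecting vessels have tighter junctions, less LYVE1 and valves. In skeletal muscle these vessels run with the blood vessels between the fibres.

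The unit of replication was the donor. The UMIs (counted transcript molecules) of a donor's LECs were summed, given as CPM, and set against the sum of the same donor's cells of every label other than LECs and vascular endothelial cells (VECs). Only donors with at least 10 LECs were used: 4 donors (4, 7, 8 and 10; 47 of the 81 LECs; 56121 to 67317 UMIs per donor) at Timepoint 1 and 7 donors (1, 2, 4, 6, 7, 8 and 9; 157 of the 168 LECs; 80694 to 394876 UMIs) at Timepoint 2. Levels, UMI counts and statements of 0 UMIs by donor refer to these donors, whereas shares of cells and the division of LECs by LYVE1 use all LECs. The median LEC held 4866 UMIs in muscle and 9436 in culture. The libraries shared 7 cell barcodes, 0 of them from LECs. The comparison cells changed in makeup: FAPs (fibro-adipogenic progenitors) carried 47.0% of their UMIs at Timepoint 1 and 72.8% at Timepoint 2, and monocytes and macrophages 15.7% and 0.714%.

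Most cells with the label carried its markers in muscle, and fewer did in culture. The labels rest on expression in the same cells, so these shares describe the labelled cells and are no independent check. At Timepoint 1, 69 of 81 LECs (85.2%) had a UMI of at least 3 of the 5 genes FLT4, LYVE1, PROX1, MMRN1 and CCL21, and at Timepoint 2, 90 of 168 (53.6%). At least 3 of the 5 endothelial genes PECAM1, CDH5, TIE1, EGFL7 and CLDN5 were seen in 79 of 81 and 162 of 168 LECs. FLT4 was detected in 75.3% of LECs and 1.38% of FAPs at Timepoint 1, and in 67.9% and 0.782% at Timepoint 2. When every cell was thinned to 1500 UMIs, these shares were 43.8% and 0.414%, then 18.5% and 0.122%. LYVE1 was detected in 76.5% of LECs in muscle and 29.2% in culture, PROX1 in 58.0% and 36.9%, and CCL21 in 71.6% and 27.4%. The median LEC nevertheless held more UMIs in culture. MMRN1 was seen in 95.1% and 94.0%. STAB2, a further marker, had 0 UMIs in the fitted donors' LECs at Timepoint 1.

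Markers of other cells were present to different degrees. The 8 FAP markers summed to 59.4 to 196 CPM in LECs at Timepoint 1 and to 441 to 1901 CPM at Timepoint 2, against at least 12337 and 4193 CPM in the comparison cells. The 7 SC markers reached at most 46.1 and 65.8 CPM, against 500 to 716 and 37.7 to 103 CPM in the comparison cells. In culture the LECs of donor 1 (65.8 CPM), alone among those fitted, lay above the donor's comparison cells (59.1 CPM). The 7 markers of smooth muscle and mesenchymal cells (SMMCs) reached at most 15.4 and 37.2 CPM, against at least 1482 and 53.0 CPM. The 8 muscle fibre genes, all detected, gave 334 to 446 CPM in LECs in muscle, against 328 to 666 CPM in VECs, and 0 to 2.53 CPM in culture.

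The 7 leukocyte genes, all detected in muscle, gave 45.5 to 535 CPM there and 9.54 to 29.2 CPM in culture, with PTPRC, CSF1R, CD3E and TYROBP at 0. The 10 VEC genes gave 384 to 1639 CPM (GJA5 at 0) and 182 to 314 CPM (FLT1 at 0) in LECs, against at least 4120 and 701 CPM in VECs. The 5 glial genes, with UMIs of 2 and then 1 of them, gave 134 to 471 CPM in LECs in muscle (median 350), against 66.5 to 185 CPM (median 139) in non-endothelial cells and 341 to 622 CPM in VECs, and 7.60 to 40.0 CPM in culture. The 12 cycling genes gave 71.3 to 319 CPM in LECs against 174 to 474 CPM in non-endothelial cells, and 347 to 1124 CPM against 1586 to 1977 CPM in culture. The part of such RNA in single results was not tested.

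**Figure D1:**
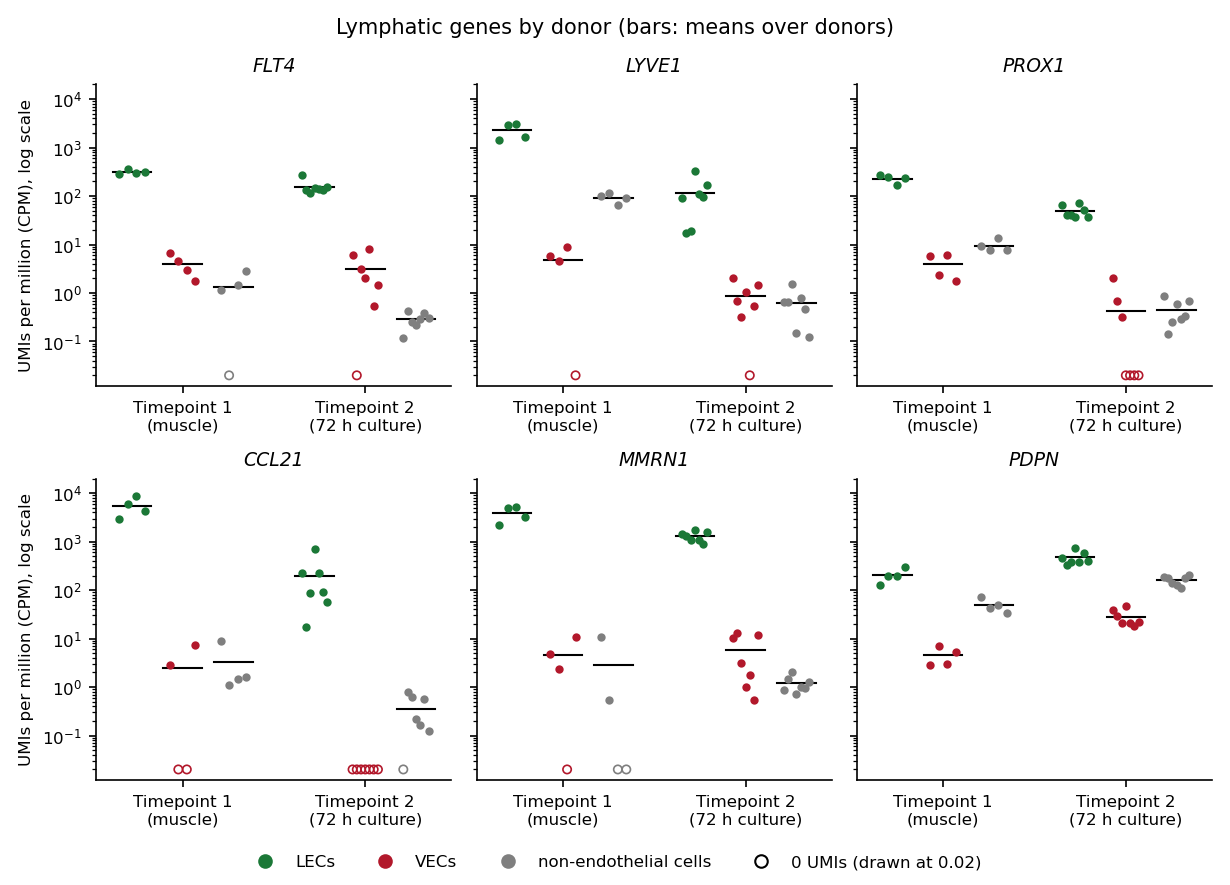
Each point is 1 donor's level of a gene in CPM (log scale) in LECs (green), VECs (red) and non-endothelial cells (grey) at Timepoint 1 (4 donors) and Timepoint 2 (7 donors); black bars are means over donors and open points are donors with 0 UMIs. LECs lie above the other cells in every panel, with mean levels of LYVE1 falling from 2273 to 118 CPM and of CCL21 from 5497 to 199 CPM, while PDPN rises from 205 to 471 CPM in LECs and from 49.4 to 160 CPM in the non-endothelial cells.

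Of 7409 genes tested at Timepoint 1, 477 (6.44%) were higher in LECs than in non-endothelial cells and 819 (11.1%) were lower (edgeR quasi-likelihood test, Benjamini-Hochberg adjusted p below 0.05 and absolute log2 fold change (log2FC) above 1). Of 10471 genes tested at Timepoint 2, 997 (9.52%) were higher and 1278 (12.2%) were lower. The count of lower genes at Timepoint 1 was 526 without donor 7, 544 without donor 10 and 1309 without a filter on low counts. The median log2FC over all genes was -0.22 and -0.14. Among 7127 genes tested at both times, 298 (4.18%) were higher in LECs at both. These kept genes were 68.3% of the 436 genes higher at Timepoint 1 that could be tested again, and 39.1% of the 762 higher at Timepoint 2 that had been tested before. Of the rest of the 436, 132 were not called at Timepoint 2 and 6 were lower. In 232 of the 298 kept genes the LECs of every donor lay above the non-endothelial cells of every donor at both times. The kept genes were picked by their folds in these same donors, so this separation is no further support. Of all genes tested, 10.8% at Timepoint 1 and 8.27% at Timepoint 2 had such a separation upwards, each time taken alone. The labels rest on expression in the same cells, so these p-values describe the spread over donors and are no independent evidence of identity. The counts also followed depth. With every pseudobulk thinned to the smallest, only 883 and 1274 genes passed the filter on low counts. Of these, 106 and 113 were higher and 122 and 83 lower. At Timepoint 2, 43.8% of calls were higher without and 57.7% with thinning, and the median log2FC was -0.14 and 0.0039. These values cover different sets of genes, so they do not show a change of balance in the same genes. With thinning and Timepoint 2 limited to donors 4, 7 and 8 of the Timepoint 1 fit, 106 and 88 were higher, 36 of them at both.

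Against non-endothelial cells, the listed lymphatic transcription factors were mostly kept. Of 15 listed, 12 passed the filter on low counts at Timepoint 1, of which 9 were higher and 0 lower, and 12 at Timepoint 2, of which 10 were higher and 0 lower; the medians were 2.32 and 5.10 on the log2 scale. PROX1, SOX18, NR2F1, LMO2, GATA2, ERG and FLI1 were higher at both, 7 of 11 tested at both, although FLI1 was not called at Timepoint 1 without donor 4 (1.22) or donor 8 (0.81). FOXC2, a valve factor, had 1 UMI in the fitted LECs at each time. The lists were chosen with earlier results of these data known, so their tallies, here and below, are descriptions and no test. Each median covers the genes tested at that time, so a list's medians at Timepoints 1 and 2 cover partly different genes.

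PROX1, the factor that sets lymphatic fate, stood at 267, 246, 167 and 238 CPM in the LECs of donors 4, 7, 8 and 10 in muscle, and at 36.4 to 70.2 CPM (median 41.3) over the 7 donors in culture. In non-endothelial cells it reached 7.55 to 13.4 CPM and 0.142 to 0.88 CPM. The groups did not overlap at either time, and every donor's LECs in culture lay below those of every donor in muscle, a separation seen downwards in 12.6% and upwards in 17.9% of the genes tested in LECs. The fold over non-endothelial cells was nevertheless larger in culture, with a log2FC of 4.46 ± 0.31 (SE, n = 4 donors, adjusted p = 2.8e-08) at Timepoint 1 and 6.73 ± 0.33 (n = 7, adjusted p = 2.4e-14) at Timepoint 2: both levels fell, that of the comparison cells by more. At Timepoint 1 satellite cells (SCs) held PROX1 at 43.5 CPM.

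SOX18, which switches PROX1 on in the embryo, gave 428, 967, 911 and 921 CPM in donors 4, 7, 8 and 10, and 483 to 924 CPM (median 771) in culture, so its level overlapped between the times. Its log2FC was 5.48 ± 0.55 and 6.19 ± 0.18. NR2F1 (COUP-TFI) fell from 720 ± 205 CPM (SD, n = 4) to 112 ± 37.6 CPM (n = 7), without overlap, and was kept, with log2FC of 4.91 and 4.03. NR2F2 (COUP-TFII), the partner of PROX1, lay at 339, 568, 714 and 371 CPM in donors 4, 7, 8 and 10 against 165 to 316 CPM in non-endothelial cells, and at 173 to 366 CPM against 25.3 to 48.0 CPM in culture. Its log2FC of 0.99 ± 0.27 at Timepoint 1 missed the fold threshold by little, so that 9 alternatives called it (1.00 to 2.28), and it reached 3.12 ± 0.17 at Timepoint 2. GATA2 was at 143, 92.1, 106 and 59.4 CPM in donors 4, 7, 8 and 10 and at 12.4 to 57.1 CPM in culture, just below muscle, with log2FC of 2.56 ± 0.38 and 6.39 ± 0.34.

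The list of lymphatic growth and guidance genes holds receptors and also secreted ligands and other proteins (ANGPT2, RELN, SEMA3A, SEMA3D, GPM6A), and most of those tested at both times were kept. Of 24 listed, 21 were tested at Timepoint 1 (17 higher, 1 lower) and 23 at Timepoint 2 (20 higher, 1 lower), with medians of 4.08 and 5.54. Of 21 tested at both, 17 were higher at both: FLT4, KDR, TEK, TIE1, ROBO4, UNC5B, EPHB4, S1PR1, ITGA9, CALCRL, RAMP3, ANGPT2, RELN, SEMA3A, SEMA3D, SEMA6A and GPM6A. Against VECs fewer stood out. At Timepoint 1, 7 of 20 tested were higher than in VECs, 5 lower and 8 not called (median log2FC 0.28). At Timepoint 2, 6 of 18 were higher, 2 lower and 10 not called (median 0.16). FLT4, the VEGF-C receptor, gave 285, 369, 304 and 312 CPM in donors 4, 7, 8 and 10, and 114 to 271 CPM (median 140) in culture. Non-endothelial cells had 0 to 2.78 CPM and 0.117 to 0.425 CPM, far below LECs at both times. The log2FC was 7.48 ± 0.41 (adjusted p = 1.9e-09) and 9.07 ± 0.24 (adjusted p = 1.5e-19).

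UNC5B, a netrin receptor of vessel guidance, was at 196, 292, 425 and 253 CPM in donors 4, 7, 8 and 10 and at 405 to 742 CPM in culture, with log2FC of 5.77 and 7.29. RELN, the secreted glycoprotein reelin, was at 196, 491, 334 and 327 CPM in the same donors and at 12.4 to 40.5 CPM in culture, with no overlap. The non-endothelial cells of Timepoint 1 held 3 RELN UMIs, a ratio of 848 (95% counting interval 281 to 4190), and the log2FC at Timepoint 2 was 8.76 ± 0.46. NRP1, a co-receptor for VEGF-A and semaphorins, was the member of this list lower at both times. It had 5 UMIs in the 4 donors' LECs at Timepoint 1 (20.1 CPM on average against 288 CPM, log2FC -4.02 ± 0.47) and 7 UMIs in the 7 donors at Timepoint 2 (3.29 against 19.6 CPM, log2FC -2.29 ± 0.42).

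Genes of the surface, uptake and leukocyte traffic were more divided. Of 23 listed, 14 were tested at Timepoint 1 (7 higher, 3 lower) and 13 at Timepoint 2 (8 higher, 2 lower), with medians of 1.44 and 2.01; LYVE1, PDPN, CCL21, MMRN1 and STAB1 were higher at both, 5 of 10 tested at both. LYVE1 reached 1443, 2948, 3037 and 1664 CPM in donors 4, 7, 8 and 10 and 17.1 to 322 CPM (median 97.4) in culture. The non-endothelial cells had 65.3 to 114 CPM and 0.123 to 1.53 CPM; pooled monocytes and macrophages held 785 CPM and then 23.9 CPM, and SMMCs 10.1 CPM in culture, close to the lowest donors' LECs. Against the pooled non-endothelial cells the groups did not overlap at either time, with log2FC of 4.45 ± 0.28 and 7.35 ± 0.63.

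CCL21 stood in muscle at 2976, 5912, 8897 and 4204 CPM in donors 4, 7, 8 and 10. In culture it ranged from 17.1 CPM in donor 2 to 694 CPM in donor 6 (median 90.9), below every donor in muscle. The non-endothelial cells had 1.10 to 9.14 CPM and at most 0.779 CPM. The log2FC was 10.50 ± 0.78 and 8.84 ± 0.74. MMRN1, multimerin, a platelet and endothelial glycoprotein, was at 2174, 4960, 5162 and 3268 CPM in the 4 donors and at 900 to 1747 CPM (median 1290) in culture, with log2FC of 10.24 ± 1.09 and 10.08 ± 0.20. STAB1, a scavenger receptor, fell from 584 ± 270 CPM to 54.4 ± 22.4 CPM and was kept. PKHD1L1 (fibrocystin-like) was at 517, 645, 653 and 312 CPM and at 0 to 27.9 CPM in culture, where it was too low to be tested.

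PDPN, podoplanin, moved the other way. It was at 125, 200, 197 and 297 CPM in donors 4, 7, 8 and 10 and at 337 to 756 CPM (median 404) in culture, where every donor was above every donor in muscle. The non-endothelial cells rose as well, from 33.8 to 71.4 CPM to 109 to 203 CPM, and FAPs alone held 90.8 CPM and 148 CPM. The log2FC of LECs was 1.92 ± 0.33 (adjusted p = 0.00039) and 1.47 ± 0.18 (adjusted p = 1.1e-05). Against FAPs alone the log2FC at Timepoint 1 was 0.93 and not called. VCAM1, an adhesion molecule for leukocytes, had 0 UMIs in the 4 donors' LECs, at least 3.38-fold lower than in non-endothelial cells. CXCL12 was lower at both times, with log2FC of -3.51 and -1.77.

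Of 17 junction and valve genes, 15 were tested at Timepoint 1 (9 higher, 1 lower) and 14 at Timepoint 2 (9 higher, 2 lower), with medians of 1.49 and 1.41, and CLDN5, CDH5, PECAM1, F11R, AFDN and TJP1 were higher at both, 6 of 14 tested at both. CLDN5, the main endothelial claudin, was at 1818, 875, 577 and 1114 CPM in donors 4, 7, 8 and 10 and at 1661 to 2955 CPM in culture, with log2FC of 5.06 ± 0.39 and 7.43 ± 0.20. GJA1 (connexin 43) was at 481, 660, 228 and 862 CPM in LECs in muscle against 24.0 to 57.6 CPM in the other cells, but in culture LECs had 99.1 to 256 CPM against 138 to 227 CPM. The groups were apart in muscle and overlapped in culture, with log2FC of 3.78 ± 0.42 and -0.10 ± 0.20.

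CLDN11, a tight junction claudin, was uneven among donors. The LECs of donors 4, 7, 8 and 10 had 731, 61.4, 30.4 and 44.6 CPM at Timepoint 1 against at most 7.55 CPM in the other cells; at Timepoint 2 LECs had 12.1 to 68.5 CPM and the other cells 20.2 to 78.5 CPM. The log2FC was 5.84 ± 1.37 (adjusted p = 0.026) and -0.37 ± 0.65. Donor 4 was far above the others. The log2FC at Timepoint 1 was 3.36 without donor 4, and the call was lost without donor 7 (5.85), without donor 8 (6.13) and with donors as blocks (5.68).

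The general endothelial list had 28 genes, 26 of them in the matrices. Of these, 16 were tested at Timepoint 1 (10 higher, 0 lower) and 20 at Timepoint 2 (13 higher, 1 lower), with medians of 2.41 and 2.07. EGFL7, ECSCR, EMCN, RASIP1, HYAL2, TM4SF1, CAV2 and CAVIN2 were higher at both, 8 of 15 tested at both. CAV1, the coat protein of caveolae, was at 2904, 1827, 1139 and 2540 CPM in donors 4, 7, 8 and 10 against 364 to 571 CPM, and at 356 to 622 CPM against 236 to 382 CPM in culture; its log2FC went from 2.14 ± 0.26 to 0.63 ± 0.13, under the fold threshold. EPAS1 (HIF-2α) was lower in cultured LECs, with a log2FC of -1.31. With VECs added to the comparison cells at Timepoint 1, GATA2, ERG, FLI1, KDR, CALCRL, RAMP3 and CAV1 were no longer called, whereas PROX1, FLT4, LYVE1, CCL21 and MMRN1 were. CALCRL was also not called at Timepoint 1 against FAPs alone (log2FC 1.22).

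**Figure D2:**
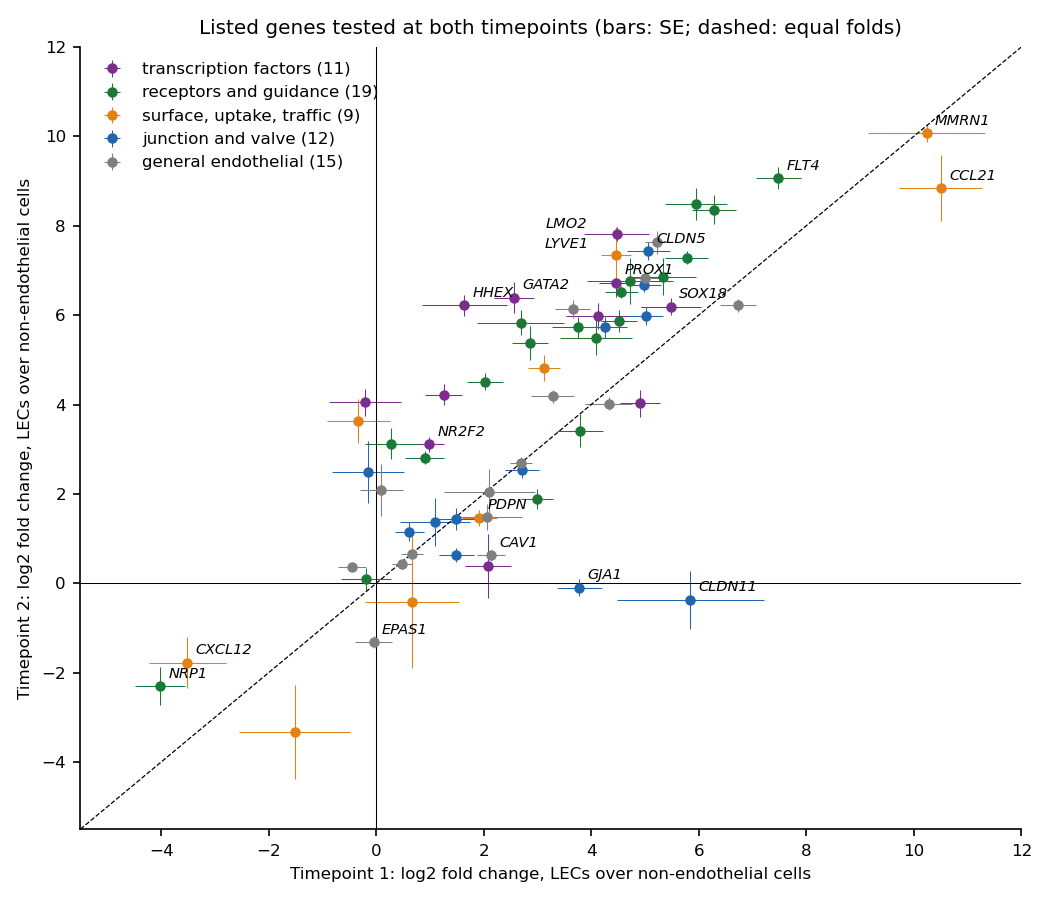
Each of the 66 points is a listed gene tested at both timepoints with more than 3 UMIs in each group; the axes give the log2 fold change of LECs over non-endothelial cells at Timepoint 1 (4 donors) and Timepoint 2 (7 donors), bars are standard errors and the dashed line marks equal folds. PROX1, LYVE1, FLT4, LMO2 and GATA2 lie above the line, GJA1, CLDN11 and CAV1 below it near a log2 fold of 0 in culture, and NRP1 is negative on both axes.

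The 15 kept genes picked by the largest fitted folds (taking the smaller of both times, higher in every donor) included MMRN1, SCN3A, CCL21, RELN, FLT4, ELOVL7, DIPK1B, GPM6A, ECSCR, SEMA3D, UNC5B, RAMP3, SOX18 and SBSPON. SCN3A, a sodium channel subunit, had 17.8, 76.8, 75.9 and 178 CPM in donors 4, 7, 8 and 10 and 9.54 to 83.6 CPM in culture. The non-endothelial cells of Timepoint 1 had 0 SCN3A UMIs, so LECs were at least 224-fold higher. SBSPON, a somatomedin B and thrombospondin domain protein, had 766, 261, 197 and 104 CPM and then 5.06 to 62.0 CPM. The study's own table of LEC genes has 50 members, of which 49 were higher at Timepoint 1 and 40 at Timepoint 2; it was chosen on these samples and is no independent evidence.

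The level of the kept genes was also compared within LECs. Of the 298 kept genes, 117 were lower in LECs at Timepoint 2 than in LECs at Timepoint 1, 9 were higher, 95 were not called and 77 were not tested. Over all 3034 genes tested 14.8% were lower and 14.8% higher. The kept genes were picked for high levels in these same LECs, with fewer UMIs per donor at Timepoint 1. That choice can favour a fall, so the tally against all genes is no test of identity genes as a set. The log2 change in LECs was -1.09 ± 0.24 for FLT4, -2.26 ± 0.28 for PROX1, -4.58 ± 0.55 for LYVE1, -5.16 ± 0.67 for CCL21 and -1.70 ± 0.25 for MMRN1. SOX18 changed by -0.26 ± 0.22 and was not called, and PDPN changed by 1.04 ± 0.25. The calls of FLT4 (without donor 7, -0.99) and PDPN (without donor 1, 4, 6 or 8, 0.94 to 0.98) fell under the fold threshold when single donors were left out, that of FLT4 also without a filter on low counts (-0.68) and that of PDPN also with at least 5 cells per pseudobulk (0.98).

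The difference of the LEC fold between the times was tested in 9093 genes: it was called higher at Timepoint 2 in 902 (9.92%) and lower in 151 (1.66%). This split followed the scaling, with 540 and 230 genes under DESeq2's size factors and 771 and 360 with DESeq2, and the median difference over all genes was 0.49, 0.21 and 0.17. Relative to that median, NR2F2 (2.31 ± 0.33), PROX1 (2.43 ± 0.44), LYVE1 (3.07 ± 0.70), LMO2 (3.53 ± 0.48), GATA2 (3.99 ± 0.44) and HHEX (4.76) stood above, and GJA1 (-3.69 ± 0.45), CLDN11 (-6.04 ± 1.37) and CAV1 (-1.31 ± 0.28) below. The comparison cells changed in makeup between the times, and the part of that change in these differences was not tested. Pooled LYVE1 went from 2520 to 91.4 CPM in LECs, from 2.98 to 0.191 CPM in FAPs and from 7.69 to 10.1 CPM in SMMCs. In monocytes and macrophages, which carried 15.7% and then 0.714% of the comparison UMIs, it went from 785 to 23.9 CPM. With all pseudobulks thinned to the smallest, LYVE1 (1.04), PROX1 (0.79) and LMO2 (2.49) were no longer called, and CLDN11 (-3.45) was not without donor 4. Thinned to 56121 UMIs, cultured non-endothelial cells keep hardly any UMI of PROX1 or LYVE1, so the loss of these 2 calls cannot show a smaller fold. For FLT4 (1.66, adjusted p = 0.084), CCL21 (-1.56, adjusted p = 0.52) and MMRN1 (-0.06, adjusted p = 1.0) the difference was not called.

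The 8 genes picked by the largest fitted gain in the fold, IRF8, ARHGAP25, CCL26, MS4A8, AJAP1, SERPINF1, ADAM19 and EMILIN2, all had 0 UMIs in the fitted LECs of Timepoint 1, where 3 UMIs would be 11.8 CPM, so the size of their gain was not measured; the mean levels of CCL26, ARHGAP25 and AJAP1 in cultured LECs lay below that value. IRF8, an interferon regulatory factor of leukocytes, was at 11.4 to 60.2 CPM (median 32.9) in cultured LECs, present in 7 of 7 donors and in 26.2% of LECs, and at least 2.86-fold higher than in muscle; the non-endothelial cells went from 4.00 to 9.64 CPM to at most 0.496 CPM. The 7 leukocyte markers together were at 9.54 to 29.2 CPM in cultured LECs (4 of 7 at 0), at 12.7 to 21.1 CPM in VECs and at 26.1 to 51.3 CPM in non-endothelial cells, and their part in the result was not tested. ICAM1, a leukocyte adhesion molecule, had 3 UMIs in the LECs of the 4 donors in muscle, all in donor 4, a level 6.48-fold below the other cells (95% counting interval 2.21 to 31.5). In culture it was at 3.18 to 50.2 CPM against 3.20 to 5.28 CPM, with a log2FC of 2.01 ± 0.44.

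The 8 genes picked by the largest fitted loss were ANPEP, DSP, PIGZ, CLDN11, TMEM158, TMEM61, DTL and GALNT6. Cultured LECs had 0 UMIs of ANPEP and 1 each of DSP and TMEM61, and muscle LECs had 3 each of PIGZ and GALNT6, so the sizes and order of these losses were not measured; GALNT6 itself had 36 UMIs in cultured LECs. Besides CLDN11, the call was lost for PIGZ without donor 1, 4, 7, 8 or 10, for TMEM61 without donor 7 or 10 and for GALNT6 without donor 8. DSP, desmoplakin, a linker of intermediate filaments to junctions, had 71.3, 154, 486 and 134 CPM in donors 4, 7, 8 and 10 in muscle and 1 UMI in 7 donors in culture. It was detected in 45.7% and 1.19% of LECs. The non-endothelial cells of Timepoint 1 had 1 UMI, and LECs in muscle exceeded LECs in culture by a ratio of 372 (95% counting interval 64.0 to 14949).

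Set against VECs, the most similar cells, 230 of 3071 genes (7.49%) were higher in LECs at Timepoint 1 and 323 (10.5%) lower, and 221 of 5457 (4.05%) and 291 (5.33%) at Timepoint 2. Of 2867 genes tested at both, 72 (2.51%) were higher in LECs at both, and 44 of these were among the 298 kept genes. LECs and VECs were labelled apart on expression in these same cells. Calls between them, here and below, therefore describe the spread over donors and are no independent evidence of identity. Of the kept genes, 91 were higher than in VECs at Timepoint 1, 19 lower, 114 not called and 74 not tested. At Timepoint 2, 69 were higher, 14 lower, 157 not called and 58 not tested. Of the listed transcription factors, PROX1, NR2F1, NR2F2 and LMO2 were higher than in VECs at both times. SOX18 was called at neither (log2FC 0.54 and -0.64). Of 11 factors tested against VECs at Timepoint 1, 4 were higher, 2 lower and 5 not called (median log2FC -0.04). At Timepoint 2, 5 of 10 were higher, 0 lower and 5 not called. The traffic list had 6 higher and 5 lower of 11 at Timepoint 1, and 3 higher and 1 lower of 4 at Timepoint 2. The junction list had 1 higher and 5 lower of 13, then 0 and 5 of 13. The general endothelial list had 3 higher and 9 lower of 20 at Timepoint 1 (median log2FC -0.82). At Timepoint 2 it had 2 higher and 6 lower of 21 (median -0.59).

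The genes picked by the largest fitted excess over VECs in muscle were CCL21, RELN, MMRN1, DSP, LYVE1, PKHD1L1, PTN and SEMA3D, and those in culture included MMRN1, DTX1, SEMA3D, GPM6A, PROX1, GDF10 and PRKCZ. PTN, the growth factor pleiotrophin, was at 2263, 4254, 3720 and 3238 CPM in the LECs of donors 4, 7, 8 and 10 and at 9.05 to 14.0 CPM in VECs; in culture LECs had 36.4 to 171 CPM and VECs 0 to 7.27 CPM. LECs and VECs did not overlap at either time, with log2FC of 8.26 ± 0.27 and 5.24 ± 0.59. CCL21 had 0 UMIs in cultured VECs, at least 518-fold below LECs, and RELN had 0 in VECs at both times, at least 268-fold and 109-fold below.

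The genes picked by the largest fitted deficit in muscle were C3H1orf54, APLNR, SMIM3, SELP, MEOX1, CCDC85A, DYSF and IFIH1, all with 0 UMIs in the LECs of the 4 donors, so that their order against other genes was not measured (C3H1orf54 was at least 14.4-fold lower), and in culture MALL, MAP1LC3C, FLT1, FAM167B, DACH1, SOX17, EPCAM and MECOM, with at most 2 UMIs in the LECs of the 7 donors, so that the same holds for them. The call of MAP1LC3C in culture was lost without donor 1, 4 or 8. SOX17, an arterial transcription factor, was at 236 to 522 CPM in VECs in muscle and 81.9 to 125 CPM in culture, and had 1 UMI in the LECs of the 4 and of the 7 donors, a ratio of 83.1 (95% counting interval 14.9 to 3285) and 184 (33.0 to 7277). DACH1, a factor of coronary and arterial growth, was at 57.3 to 80.6 CPM and 29.1 to 44.9 CPM in VECs and had 0 UMIs in LECs, at least 6.23-fold and 19.9-fold lower. FLT1, the VEGF-A decoy receptor, had 15 UMIs in the LECs of the 4 donors in muscle, in donors 4 and 10, and 0 in culture, at least 28.9-fold below VECs.

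**Figure D3:**
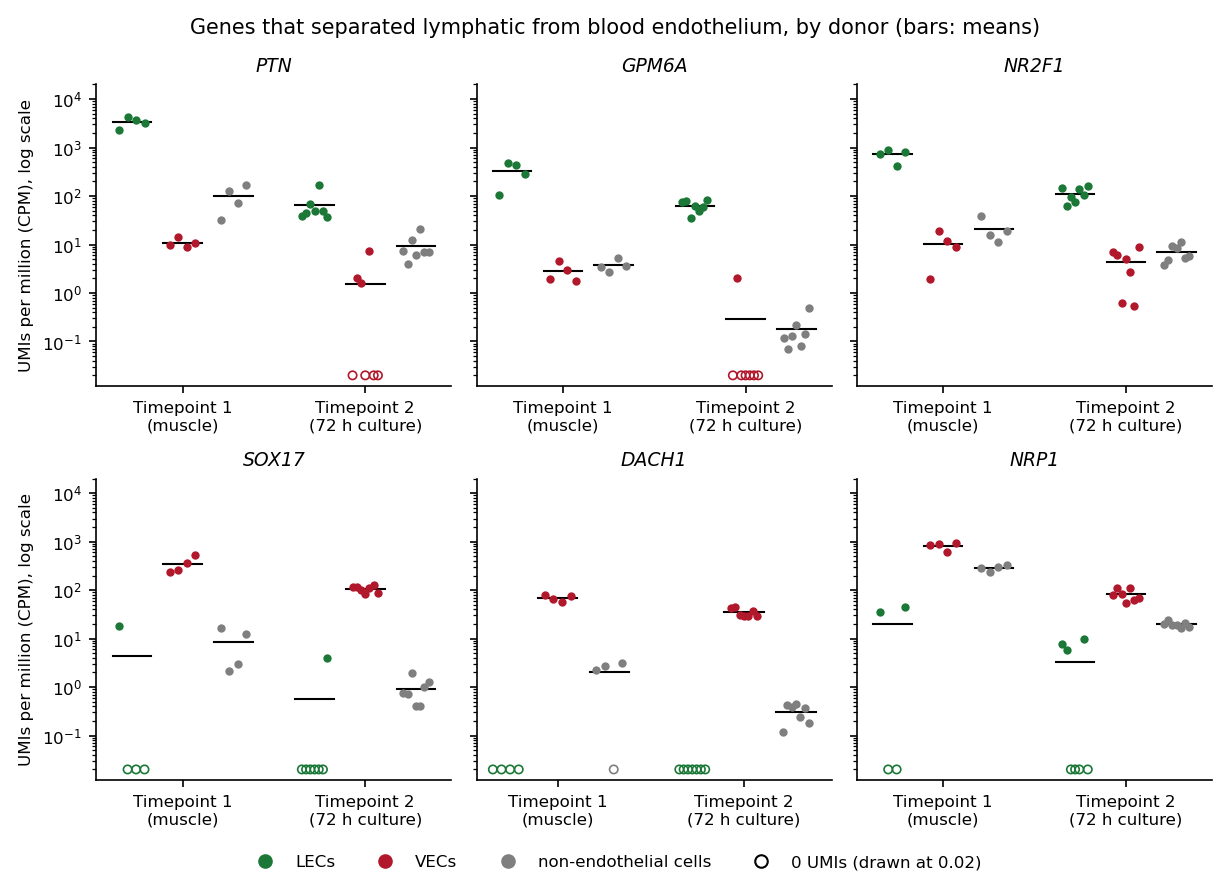
Each point is 1 donor's level in CPM (log scale) of PTN, GPM6A, NR2F1, SOX17, DACH1 and NRP1 in LECs (green), VECs (red) and non-endothelial cells (grey); bars are means and open points are 0 UMIs. PTN falls in LECs from a mean of 3369 to 65.5 CPM and stays above VECs, and DACH1 is at 0 UMIs in the LECs of all 4 and 7 donors.

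Within muscle, LECs were not uniform. Of the 81 LECs, 62 from 9 donors had a LYVE1 UMI and 19 from 8 donors had none, at a similar depth (median 5026 and 4866 UMIs per cell). Only 1 LEC had exactly 1 LYVE1 UMI, so few cells lay at the boundary. This split was chosen after the values were seen and is described without a test; the intervals are 95% Poisson intervals of pooled counts and cover counting error only. CCL21 was at 8551 CPM (8245 to 8865) in LECs with LYVE1 and 61.6 CPM (22.6 to 134) in those without, seen in 55 of 62 and 3 of 19 cells. PDPN (243 and 41.1 CPM), DSP (330 and 41.1 CPM), STAB1 (641 and 205 CPM) and MMRN1 (4960 and 1160 CPM) followed it. PTN was at 2899 and 2946 CPM. PROX1 was at 241 and 216 CPM, but donor 4 gave 12 of the 21 PROX1 UMIs of the LECs without LYVE1, and without it PROX1 was at 119.9 CPM there.

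Other genes were higher in the 19 LECs without LYVE1. SBSPON was at 55.1 CPM (33.2 to 86.0) with and 780 CPM (615 to 977) without, and CLDN11 at 26.1 CPM (11.9 to 49.5) and 493 CPM (363 to 653). GATA2 (34.8 and 205 CPM), NFATC1 (23.2 and 195 CPM) and GJA4 (60.9 and 277 CPM), genes known from the endothelium of lymphatic valves, were also higher, as were CLDN5 (858 and 1725 CPM), LMO2 (594 and 1242 CPM) and ANGPT2 (168 and 544 CPM). Donor 4 gave 36 of the 48 CLDN11 UMIs and 40 of the 53 ANGPT2 UMIs of these cells, and without it CLDN11 was at 160 CPM, ANGPT2 at 173 CPM and SBSPON at 546 CPM. Donor 7 gave 19 of the 27 GJA4 UMIs, and without it GJA4 was at 105 CPM. For GATA2 and NFATC1 the donor with most UMIs was donor 8, and both stood at 151 CPM without it. Genes of other cells were at 354 and 1119 CPM for muscle fibres, 629 and 975 CPM for VECs, 107 and 328 CPM for FAPs and 157 and 349 CPM for leukocytes. Each of these higher levels came largely from 1 donor: without donor 2 the muscle fibre genes were at 337 CPM in LECs without LYVE1, without donor 5 the FAP genes at 110 CPM, and without donor 4 the VEC genes at 453 CPM and the leukocyte genes at 199.9 CPM. Their part in the result was not tested.

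In culture LYVE1 was seen in 49 LECs and not in 119, with exactly 1 UMI in 21 cells. At 91.4 CPM over all LECs and a median of 9436 UMIs per cell, many LECs can lack a LYVE1 UMI by sampling, so this division cannot show how far cultured LECs differed among themselves. CCL21 was at 283 CPM with and 142 CPM without, CLDN11 at 17.0 and 44.7 CPM, GATA2 at 30.2 and 36.4 CPM, LMO2 at 382 and 379 CPM, and PDPN at 455 and 447 CPM.

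**Figure D4:**
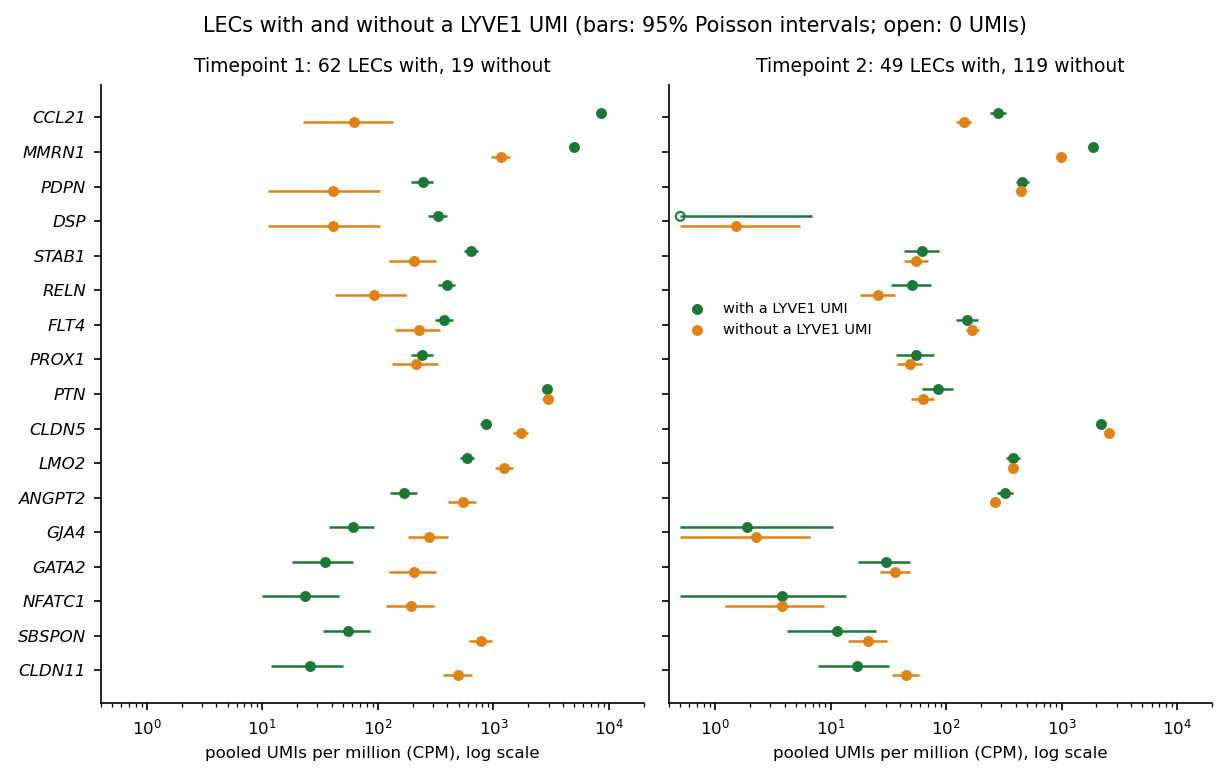
Pooled levels in CPM (log scale) of 17 genes in LECs with (green) and without (orange) a LYVE1 UMI at Timepoint 1 (left; 62 and 19 cells) and Timepoint 2 (right; 49 and 119 cells); bars are 95% Poisson intervals and the open point is 0 UMIs. In muscle CCL21 and PDPN lie far to the right in LECs with LYVE1 and SBSPON, CLDN11, NFATC1 and GATA2 in those without, and in culture most pairs lie close together.

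The share of LECs was compared in the 9 donors present at both times. LECs were 2.06 ± 0.78% (SD, n = 9) of a donor's cells at Timepoint 1 and 1.90 ± 1.18% at Timepoint 2. The share was higher in culture in 4 of 9 donors. The mean difference of -0.16 percentage points was within the spread (exact 2-sided sign-flip test, p = 0.711). That mean joined donors that differed. The share fell in donors 5, 6 and 10 (to 0.599%, 0.787% and 0.345%), whose sorted population the paper lists as SCs. It rose in donors 1, 2 and 9 (to 3.646%, 2.299% and 3.096%), listed as unsorted. Among donors 4, 7 and 8, listed as FAPs, it rose in donor 4 alone. The paper describes the cells of Timepoint 2 as unsorted, and a link to the listed population was not tested. As a share of LECs plus VECs, LECs were 8.03 ± 3.46% and 18.1 ± 8.46%. This share was higher in culture in 8 of 9 donors, and the mean difference was 10.0 points (exact sign-flip test, p = 0.0117). The lowest and highest donors were 1.89% and 13.0% in muscle and 5.10% and 30.8% in culture. These are shares of captured cells and do not give numbers of cells.

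**Figure D5:**
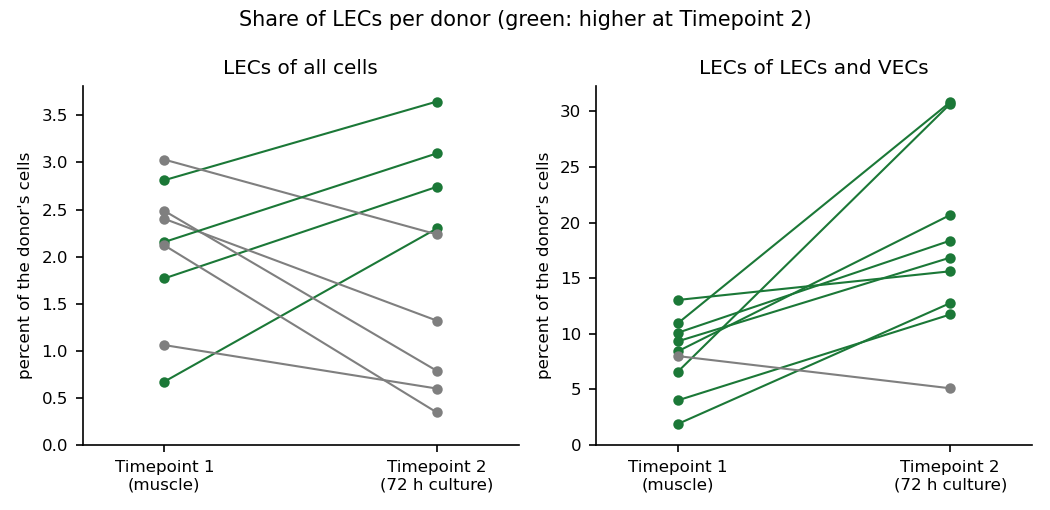
Each line joins 1 donor's share of LECs at Timepoint 1 (muscle) and Timepoint 2 (72 h culture), as a percent of all its cells (left) and of its LECs and VECs (right); green lines rise and grey lines fall. The share of all cells rises in 4 and falls in 5 of 9 donors, and the share of endothelial cells rises in 8 of 9.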

How the data were processed

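Single-cell 3′ RNA-seq of bovine muscle cells was analysed at 2 of 5 timepoints. The deposited raw UMI counts were made by the authors with Cell Ranger 6.0.1 on genome build ARS-UCD1.2, and the deposited cell table gave the label, the donor (demuxlet) and the mitochondrial percent that the authors used for quality control; 11 of its columns were not used, nor were the normalized combined values. Demuxlet removes doublets of different donors only, and no other doublet caller was run. Runs of a timepoint share 1 matrix. Of 21880 genes, 16828 have a symbol in the files.

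UMIs were summed per donor and cell group (at least 10 cells) and tested with edgeR 4.0.16 (filterByExpr, TMM, quasi-likelihood test, Benjamini-Hochberg adjustment over all genes tested, adjusted p below 0.05 and absolute log2FC above 1) in R 4.3.3, with the timepoint-by-group term for the difference between times. The standard error of a log2FC was its absolute value divided by the square root of the quasi-likelihood F statistic. It therefore comes from the fitted model and is not a spread computed directly over donors. Shares were compared by an exact sign-flip test over donors. Counting intervals and floors (3 counts for a group at 0) cover counting error only. Folds were not fitted for print where a group had 3 UMIs or fewer.

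Donors pair the samples, since the same animals gave both groups; correlations of their deviations were 0.142 to 0.207 at Timepoint 1 and 0.0291 to 0.155 at Timepoint 2. On simulated counts with 200 changed genes, the tests recovered 60.0% of 4-fold changes (log2 of 2) at Timepoint 1, 79.5% at Timepoint 2 and 39.4% for the difference. Among unchanged genes, 11, 2 and 4 were called. The simulation gave all genes a common dispersion and all groups equal means before the change, so recovery in the real fits can differ. Alternatives were DESeq2 1.42.0, its size factors, no filter, other cell minimums, thinning, donor blocks, other comparison cells and leaving out donors.

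Named were the label's markers, the members of 5 lists and of the study's list, the 15 kept genes with the largest smaller fold that were higher in every donor, and the 8 genes per direction with the largest difference between times or from VECs. Members, lists and rules were chosen with earlier results of these data known. Some genes that these rules name are not reported here.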

Additional observations from a re-analysis of the deposited data

Results flagged for a closer look

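Among 98 groups of donors tested, 14 had a donor far from the rest, where chance gives about 1 in 20 groups. In muscle, donor 4 stood apart in LECs for SOX18 (428 CPM), CLDN11 (731 CPM) and ICAM1 (53.5 CPM), and in non-endothelial cells for CCL21 (9.14 CPM), MMRN1 (10.9 CPM) and CAV1 (571 CPM). In culture it did so for NR2F2 in non-endothelial cells (48.0 CPM). In cultured LECs, donor 1 stood apart for FLT4 (271 CPM), donor 6 for CCL21 (694 CPM) and donor 7 for PTN (171 CPM) and DSP (5.02 CPM, 1 UMI). In cultured VECs, donor 1 stood apart for PROX1 (2.01 CPM), donor 7 for PTN (7.27 CPM) and donor 9 for FLT1 (103 CPM).

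The LEC fold over non-endothelial cells differed between the times by the interaction term for several named genes. It was larger in culture for PROX1 (log2 difference 2.43), NR2F2 (2.31), LYVE1 (3.07), GATA2 (3.99), LMO2 (3.53) and HHEX (4.76). The makeup of the comparison cells changed as well, and its part in these differences was not tested. Thinned to the smallest pseudobulk, PROX1 (0.79), LYVE1 (1.04) and LMO2 (2.49) were no longer called. For PROX1 and LYVE1 thinning leaves hardly any UMI in cultured non-endothelial cells, so it cannot show a smaller fold. The LEC fold was smaller in culture for GJA1 (-3.69), CLDN11 (-6.04), CAV1 (-1.31), TMEM158 (-5.75) and DTL (-5.37). Where a group had 3 UMIs or fewer the mean level in LECs is given instead of a fold. The test also called a larger fold in culture for the following genes, of which all but ICAM1 had 0 UMIs in the fitted LECs of muscle (3 UMIs would be 11.8 CPM), so that no rise of their level in LECs is shown where the cultured level lies below that value: IRF8 (31.8 CPM in cultured LECs), ICAM1 (18.6 CPM), ARHGAP25 (5.57 CPM), CCL26 (3.19 CPM), MS4A8 (20.7 CPM), AJAP1 (10.3 CPM), SERPINF1 (21.9 CPM), ADAM19 (14.2 CPM) and EMILIN2 (28.6 CPM). Smaller were DSP (211 CPM in LECs of muscle), ANPEP (38.5 CPM), PIGZ (11.96 CPM), TMEM61 (58.8 CPM) and GALNT6 (27.1 CPM in cultured LECs). The calls of CLDN11 (without donor 4), PIGZ (without donor 1, 4, 7, 8 or 10), TMEM61 (without donor 7 or 10) and GALNT6 (without donor 8) were lost when single donors were left out.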

How the results depend on the processing

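Thinned to the smallest pseudobulk, 883 and 1274 genes were tested against non-endothelial cells. Of these, 106 were higher in LECs at Timepoint 1 and 113 at Timepoint 2. The difference between times was called higher in 137 and lower in 35 of 1465 genes. LECs exceeded VECs in 81 of 888 and 52 of 1311 genes and fell below them in 124 and 86. Of 1049 genes tested within LECs, 186 were higher and 156 lower in culture than in muscle. With thinning and, at Timepoint 2, donors 4, 7 and 8 alone, 36 genes were kept; 587 genes could be tested at both, 33 of them kept without thinning and 31 of these also with it. With a UMI demanded in 50% of LECs, 164 and 205 genes were higher and 79 were kept. Without a filter on low counts, 388 and 547 genes were higher than in VECs, 776 and 599 lower, and within LECs 1105 were higher and 758 lower in culture. With at least 5 cells per pseudobulk these were 143 higher than in VECs at Timepoint 1, and 136 higher and 158 lower within LECs. The difference between times was called higher in 540 and lower in 230 genes with DESeq2's size factors, and lower in 360 with DESeq2. The cause of the changes with scaling was not tested.

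Leaving out single donors gave 376 to 438 (Timepoint 1) and 922 to 1033 genes higher and 526 to 668 and 1128 to 1307 lower than in non-endothelial cells, 194 to 231 and 203 to 247 higher than in VECs, and 670 to 857 and 108 to 156 for the difference. The share of LECs among endothelial cells then differed by 8.29 to 11.7 points. Pairing donors as a replicate block gave 515 and 991 higher genes, 866 and 148 for the difference and 386 and 421 within LECs, and among named genes it lost the call of CLDN11 and gained that of NR2F2, both at Timepoint 1. No called direction reversed in the 158 gene values recomputed; the LEC share of all cells, which was not called, turned from -0.16 points to 0.0329 without donor 6 and 0.0424 without donor 10. Fits demanding 15 cells were not run where too few donors were left (Timepoint 1, the difference, VECs at Timepoint 1 and within LECs), and singlets that failed quality control were not counted as a share. The fit within LECs with its alternatives, and leaving out donors for the difference and for the division by LYVE1, were chosen after seeing the data.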
